A study of Mus musculus with 30 samples.

Results

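The 376 genes described here lie on mouse chromosome 12 and are expressed in J774A.1 cells. Their mean level changed by less than 0.5 (log2) after interferon gamma (IFNG) in wild-type (WT) cells. They were chosen from the 1165 chromosome 12 genes with a count in any library by a mean level of at least 1 CPM (CPM being the fragment count scaled to a common library size) over all 30 libraries, which 435 genes reached, and by an absolute log2 response to IFNG under 0.5 over the 18 WT libraries. The same rule kept 10969 genes of the whole genome, of 54146 gene identifiers counted. Just inside the level limit were Sh3yl1 (1.00 CPM) and Gm48226 (1.02 CPM) and just outside it Bbof1 (0.974 CPM) and Slc25a47 (0.970 CPM). Just inside the response limit were 9330151L19Rik (0.49) and Gm47260 (0.496) and just outside it Gm26520 (-0.52) and Numb (-0.54). The level and the WT response therefore describe the choice and are not results.

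J774A.1 is a mouse macrophage-like cell line. WT1, WT2 and WT3 are clones grown from single cells that were not electroporated, and KO1 and KO2 are clones in which CRISPR removed both copies of B2_Mm2.Dicer1, a B2 SINE within the first intron of Dicer1 on chromosome 12. Each clone was sequenced untreated or after 100 ng/mL IFNG for 4 h, with 3 libraries of polyadenylated RNA per clone and treatment. The knockout (KO) clones went through editing and the WT clones did not, and KO1 is 1 clone. P-values measure the spread between libraries, which may be technical. Against pooled WT that spread also holds differences between the WT clones, whereas for KO1 against KO2 it is only the spread within each clone. Counts of calls from these comparisons therefore rest on different spreads. Libraries held 15566122 to 37992642 counted fragments. All 9 macrophage markers examined were expressed, with a summed level of 4288 to 6921 CPM, and the markers of T, B, fibroblast and epithelial cells each summed to under 1 CPM (at most 0.278 CPM), while the 3 endothelial markers summed to 1.37 to 3.29 CPM.

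The deletion was made with guides on each side of the element. They are shown because the edit lies on the chromosome whose genes are described, and the capitals mark the protospacer-adjacent motif.
gEC005, upstream: ggccagggaacggctttagaGGG
gEC007, downstream: aaatagtcactgggcaacagTGG

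A gene's transcript level usually tracks the number of copies of its chromosome, so that loss of a copy lowers many neighbouring genes together by a like amount. Some genes depart from this, because feedback on their own transcription or RNA stability returns the level towards normal. Subunits of complexes depart from it mostly at the level of protein. Their partners encoded on other chromosomes keep their dose, and excess subunits are mostly removed as protein rather than as RNA. DNA copy number was not measured in these libraries, and CPM are relative levels, so less RNA per cell and fewer cells with the RNA cannot be told apart.

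Dicer1 (ENSMUSG00000041415.10, mm10 chromosome 12, 104687742 to 104751952, minus strand), which encodes the RNase that cuts microRNA precursors, is the member that carries the edit. Untreated WT libraries held 96.8 to 130 CPM of Dicer1 with a median of 124, KO1 libraries held 71.1, 73.0 and 70.5 CPM and KO2 libraries 108, 104 and 101 CPM. All KO1 libraries were below all WT libraries, and the KO2 libraries fell inside the WT range. The Dicer1 log2 fold change (log2FC) in untreated KO1 against pooled WT was -0.74 (SE 0.079, edgeR adjusted p = 4.1e-05), below the median of the members. In untreated KO2 it was -0.18 (edgeR adjusted p = 0.18). These Dicer1 values are from untreated cells only. The paper reports Dicer1 as significantly lower in KO than in WT cells, both untreated and after IFNG. It also reports that IFNG significantly raised Dicer1 in all WT clones, so members can include genes with a modest response. The deleted element is intronic, so exon counts check the label of neither clone directly.

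In untreated KO1, 250 of the 376 genes were lower than in pooled WT by edgeR (adjusted p under 0.05), 7 were higher and 119 did not pass the test. Over all 14239 genes tested, 14.6% were called lower and 11.1% higher. The median log2FC of the members was -0.37, with quartiles of -0.55 and -0.23, against a median of 0.01 over the 10593 genes on other chromosomes that met the same rule. After IFNG, 232 members were lower and 7 higher in KO1 (12.1% and 8.76% of 14043 genes tested), with a median of -0.38.

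The shift was of like size in every KO1 library. Taking in each library the median over the members of log2(CPM + 0.5) against the WT clones, less the median over all other genes, untreated KO1 stood at -0.37 ± 0.018 (SD, n = 3) and IFNG-treated KO1 at -0.37 ± 0.013 (SD, n = 3). In percent of the WT level these are changes of -22.5% and -22.4%. The other clones had means between -0.03 and 0.02. The summed level of all members was 25510 ± 435 CPM in untreated WT (SD, n = 9), 20379 ± 284 CPM in KO1 (SD, n = 3) and 26000 ± 159 CPM in KO2 (SD, n = 3), so KO1 held 79.9% of the WT sum and KO2 102%.

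**Figure D1:**
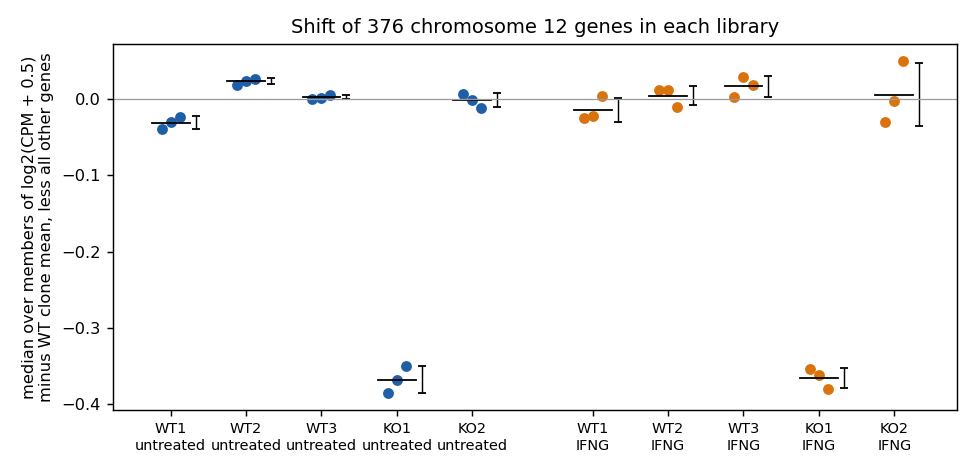
Shift of the 376 chromosome 12 genes in each of the 30 libraries (y axis, log2), by clone and treatment; points are libraries, horizontal lines their means and bars 1 SD (n = 3). The 6 KO1 libraries sit near -0.37 and those of the other 4 clones near 0.

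KO2 carries the same deletion and did not show the shift. In untreated KO2, 14 members were lower and 14 higher than in WT (6.7% and 4.89% of 14441 genes tested), with a median log2FC of -0.003. After IFNG, 11 were lower and 18 higher (6.12% and 3.92% of 14042 genes tested), with a median of 0.01. Without WT1, 127 members untreated and 126 after IFNG were called in KO2 in either direction, where 40.6% of 13842 and 37.0% of 13515 genes tested were called. The direct comparison of KO1 with KO2 called 292 members lower and 5 higher in untreated cells (12.1% and 11.1% of 13826 genes tested), with a median of -0.38. After IFNG it called 270 lower and 2 higher (8.36% and 6.53% of 13860 genes tested), with a median of -0.39. The comparisons of KO1 with WT, KO2 with WT and KO1 with KO2 share libraries, so their counts are given side by side and are not independent.

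The choice of control decided how far chromosome 12 stood apart. Against pooled WT, the medians of the 19 other chromosomes in untreated KO1 ran from -0.25 to 0.20, and those of KO2 from -0.28 to 0.20. Against KO2, the medians of the same 19 chromosomes in untreated KO1 ran from -0.01 to 0.04, while the 376 members stood at -0.38. Among the WT clones, WT1 differed most from the others, with an interquartile range over members of 0.35 (log2), against 0.23 in WT2 and 0.20 in WT3. Without WT1, 276 members were lower and 27 higher in untreated KO1 (of 13818 genes tested, 26.1% were lower and 3449 genes higher), with a median of -0.40. Along the chromosome, the medians of the 12 stretches of 10 Mb lay between -0.52 and -0.22 against pooled WT and between -0.48 and -0.31 against KO2, in untreated cells.

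**Figure D2:**
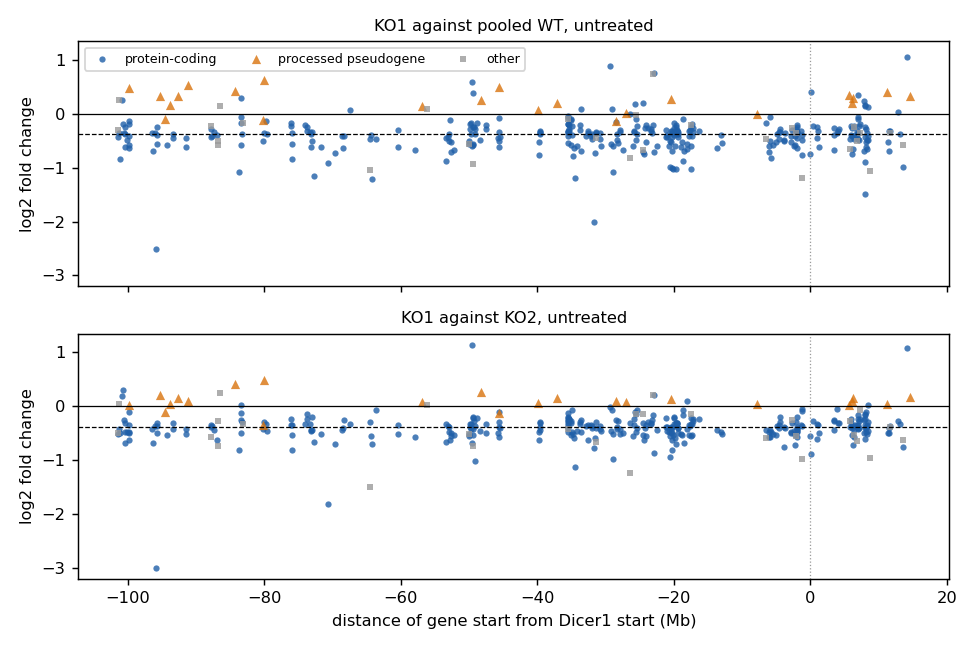
log2 fold change of each member (y axis) by the distance of its start from that of Dicer1 in Mb (x axis), in untreated KO1 against pooled WT (top) and against KO2 (bottom); the dashed line is the median of the members. Protein-coding members lie around -0.38 along the whole chromosome, and 20 of the 23 processed pseudogenes (triangles) lie above 0 in both.

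Members scattered around their shift about as widely as other genes scattered around 0. In untreated cells the interquartile range over members of KO1 against the WT clones was 0.30 (log2), beside 0.31 over genes on other chromosomes under the same rule. Against KO2 the ranges were 0.23 and 0.19, and in KO2 against the WT clones 0.18 and 0.22. The differences between these ranges were not tested. The departures of single members were nevertheless alike between the treatments, which share no library. Across the 376 genes, log2FC of untreated and IFNG-treated KO1 against WT had a Pearson r of 0.90 and a Spearman rho of 0.85. Against KO2, with no WT library, the Pearson r was 0.84. Lasting differences of the control clones also enter these values. Genes are not independent replicates, and both sets come from the same clones, so no p is given.

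**Figure D3:**
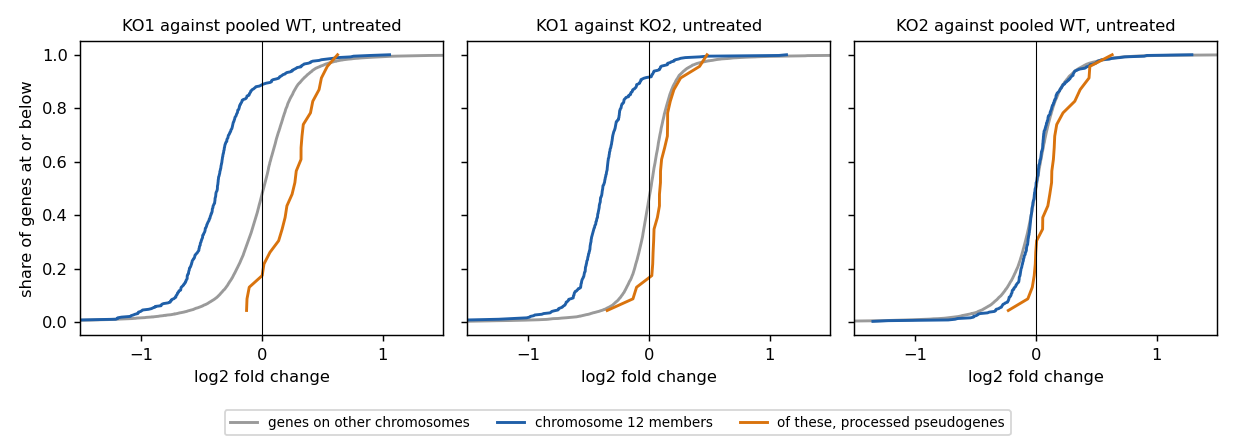
Cumulative share of genes (y axis) by log2 fold change (x axis) in 3 comparisons of untreated cells, for the 376 members, for the processed pseudogenes among them and for genes on other chromosomes. The curve of all members is moved to about -0.37 in both KO1 comparisons and lies over that of other genes in KO2, whereas 20 of the 23 pseudogenes are above 0 in both KO1 comparisons.

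Each member was placed by the 95% interval of its log2FC in untreated KO1. The interval held the member median and not 0 for 181 genes, which followed the shift. It lay below the median for 84 genes. It held 0 and not the median for 37 genes, which stayed near the WT level, and it lay above 0 for 15. It held both values for 44 genes, which this left undecided and whose median WT level was 4.39 CPM, and it lay between them for 15. Of 265 members that followed the shift or lay below the median in untreated cells, 241 (90.9%) were there again after IFNG. These were 94.1% of the 256 found there after IFNG. Of 52 placed near or above WT, 45 (86.5%) were there again, which is 81.8% of 55.

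Of the 52 members placed near or above WT in untreated cells, 28 were protein-coding, 21 were processed pseudogenes and 3 were of other types. Protein-coding genes made up 324 members, of which 240 were lower in untreated KO1 and 3 higher, with a median log2FC of -0.38. Processed pseudogenes, retrocopies of spliced messages inserted in the genome, made up 23 members. In untreated KO1 0 of the 23 were lower by edgeR (0 at an unadjusted p under 0.05, and 0 by DESeq2), 4 were higher, and their median was 0.27. After IFNG again 0 were lower by edgeR (0 at an unadjusted p under 0.05, and 0 by DESeq2) and 4 were higher, with a median of 0.24. Against KO2 in untreated cells 0 were lower by edgeR (1 at an unadjusted p under 0.05, and 0 by DESeq2), and the median was 0.10. After IFNG against KO2 0 were lower by edgeR (1 at an unadjusted p under 0.05, and 0 by DESeq2), with a median of 0.06 and 7 of the 23 below 0. In KO2 against WT the pseudogenes had medians of 0.13 untreated and 0.21 after IFNG, with 17 and 20 of the 23 above 0, and 3 were called higher after IFNG. Without WT1, 1 pseudogene was lower and 13 were higher in untreated KO1. The 29 members of other types had a median of -0.37, and 10 of them were lower.

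These retrocopies are close to genes that are expressed elsewhere. Each of the 23 matched a coding transcript over at least 80% of its length, with an identity of 93.4% to 100% and a median of 98.0%. For 22 of them the closest coding gene lay on another chromosome, and in all 22 it was expressed at a higher level, by a median factor of 50.6. Those 22 coding genes had a median log2FC of 0.22 in untreated KO1, from -0.03 to 0.60, with 8 called higher. A fragment can be told to be from the retrocopy only where the sequences differ, so the counts of these members are uncertain. The share of their fragments that came from the other gene was not tested.

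Stretches of 60 bases from the coding part show how few bases set them apart, for 3 retrocopies beside their closest coding gene (GENCODE vM21 transcripts), with differing bases in capitals. Retrocopies whose closest coding gene lay on chromosome 12 or on another excluded chromosome were left out. Of the rest, the 3 with the highest levels and an ungapped stretch with at least 1 difference are shown.
Gm6863: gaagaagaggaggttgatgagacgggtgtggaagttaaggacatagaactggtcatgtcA
Naca: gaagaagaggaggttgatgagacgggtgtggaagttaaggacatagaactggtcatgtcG
Gm4864: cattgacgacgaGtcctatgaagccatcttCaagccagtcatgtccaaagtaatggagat
Hdac1: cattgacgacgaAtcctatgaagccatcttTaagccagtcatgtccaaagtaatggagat
Gm5182: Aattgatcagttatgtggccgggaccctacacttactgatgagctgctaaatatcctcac
Acaca: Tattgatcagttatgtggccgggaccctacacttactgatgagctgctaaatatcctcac

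Gm6863, a retrocopy of the gene of the nascent polypeptide-associated complex subunit Naca (chromosome 10), had a log2FC of 0.00 in untreated KO1, beside 0.03 for Naca itself. Gm4864, which resembles the histone deacetylase gene Hdac1 (chromosome 4), stood at 0.02 beside 0.05. Gm5182, which resembles Acaca (chromosome 11), the gene of acetyl-CoA carboxylase 1, stood at -0.10 beside -0.03. Gm6768, which resembles Ncoa4 (chromosome 14), the ferritin receptor of selective autophagy, was at 12.4 to 15.03 CPM in untreated WT and at 17.9, 17.9 and 18.3 CPM in KO1, so the groups did not overlap. Its log2FC of 0.33 (SE 0.065, edgeR adjusted p = 0.0022) stood beside 0.36 for Ncoa4. Gm4294, a copy of the ribosomal protein gene Rpl15 (chromosome 14), stood at 0.32 (edgeR adjusted p = 0.14) beside 0.22.

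**Figure D4:**
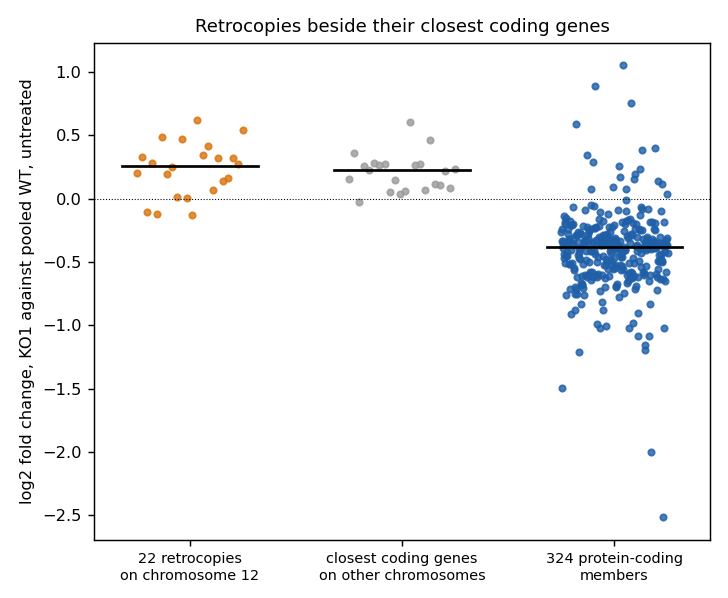
log2 fold change in untreated KO1 against pooled WT (y axis) of the 22 retrocopies on chromosome 12 whose closest coding gene lies elsewhere, of those coding genes, and of the 324 protein-coding members; lines are medians. The first 2 sets have medians of 0.26 and 0.22 and the third -0.38.

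The level of a gene made little difference to the shift once it was above the lowest class. Of 86 members with at least 80 CPM in untreated WT, 71 were lower in untreated KO1, with a median log2FC of -0.37. Of 140 members at 20 to 80 CPM, 116 were lower (median -0.41), and of 84 at 5 to 20 CPM, 48 were lower (median -0.35). Of 66 members under 5 CPM, 15 were lower and 4 higher, with a median of -0.27. This class had a median SE of 0.18, against 0.069 in the highest class, and it held 15 of the 23 processed pseudogenes, so its smaller share of calls cannot be read as a smaller shift. Against KO2, 84 of the 86 most expressed members were lower.

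The members were also grouped into 10 function lists. Of 223 listed members, 174 (78.0%) were lower in untreated KO1 and 162 (72.6%) after IFNG. Of the 153 members in no list, 76 (49.7%) and 70 (45.8%) were lower, and over all 376 members the untreated share was 66.5%, beside 14.6% of all genes tested. In untreated KO1 the members in no list had a median log2FC of -0.33 and a median SE of 0.12. The lists had median SEs of 0.070 to 0.10, so the smaller share of calls outside them cannot be read as a smaller shift. The list medians in untreated cells lay between -0.46 and -0.34, around the median of -0.37 of all members and away from -0.007 over all genes tested. The lists were chosen with the shift already known, and no list was tested against the others.

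Vesicle transport and Golgi genes had the lowest list median (-0.46), and 23 of 27 were lower. Among them were Tmed10 (-0.44), a p24 cargo receptor, Rab10 (-0.43), a small GTPase of exocytosis, Itsn2 (-0.48), an endocytic scaffold, and Mia2 (-0.61), which helps load collagen into COPII carriers. Of 27 genes of protein folding and quality control, 22 were lower (median -0.43). They included the chaperone Hsp90aa1 (-0.22) and the disulfide isomerase Pdia6 (-0.34). The cytoskeleton and motor list had 13 of 22 lower (median -0.42), with the dynein heavy chain Dync1h1 at -0.39, the kinase Rock2 at -0.43 and the kinase Cdc42bpb at -0.40.

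Of 17 lysosome and lipid genes, 15 were lower (median -0.39), among them the protease Lgmn (-0.41), the membrane protein Laptm4a (-0.39) and, by less, the cholesterol carrier Npc2 (-0.17, edgeR adjusted p = 0.035). Lgmn ran from 487 to 670 CPM in untreated WT, was at 445, 445 and 407 CPM in KO1 and at 707, 721 and 684 CPM in KO2, so that the WT libraries lay between the edited clones without overlap. Of 40 transcription factors and chromatin regulators, 33 were lower (median -0.38), including Yy1 (-0.31) and the hypoxia factor Hif1a (-0.36). Id2, an inhibitor of helix-loop-helix factors, had a like log2FC of -0.37 but did not pass the test (edgeR adjusted p = 0.16), and against KO2 it did (-0.46, edgeR adjusted p = 2.0e-06).

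Of 23 genes of DNA replication, repair and mitosis, 20 were lower (median -0.37), with the ribonucleotide reductase subunit Rrm2 at -0.35, the centrosomal Nin at -0.64 and the mitotic kinase Nek9 at -0.33. Of 21 macrophage and immune signalling genes, 15 were lower (median -0.37). Besides Lgmn and Npc2, which are in this list too, these were led in level by the sheddase Adam17 (-0.18, edgeR adjusted p = 0.022) and the kinase Akt1 (-0.42). RNA processing had 26 of 30 lower (median -0.34), with the poly(A) polymerase Papola at -0.32, the RNA-binding Pum2 at -0.36, the splicing factor Srsf5 at -0.26 and the mRNA decay factor Zfp36l1 at -0.71.

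Mitochondrial and energy genes had 13 of 22 lower (median -0.35). The 2-oxoglutarate dehydrogenase subunits Dlst (-0.32) and Dld (-0.34) were near the shift, and the folate enzyme Mthfd1 was lower by less (-0.15, edgeR adjusted p = 0.016). Translation had 7 of 12 lower (median -0.35), with the initiation factors Eif5 at -0.39 and Eif2s1 at -0.32. In untreated KO2, none of the 10 lists had more than 2 members lower or more than 5 higher.

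Subunits of complexes were counted by the place of their gene. In 20 complexes with at least 1 member, 28 of 33 subunits from chromosome 12 were lower in untreated KO1. Of 210 subunits encoded elsewhere, 11 (5.24%) were lower and 33 higher. Among all protein-coding members 74.1% were lower, so the share is not particular to subunits. Over all genes tested 14.6% were lower and 11.1% higher. Without WT1, 29 of 33 and 28 of 210 were lower, and 112 of the 210 were higher. After IFNG, 24 of 33 and 13 of 210 were lower, and 24 of the 210 were higher. In untreated KO1 against KO2, 32 of 33 and 5 of 210 were lower, and 55 of the 210 were higher. Over all genes tested in that comparison 12.1% were lower and 11.1% higher. In KO2 against WT, 0 of the 33 were lower in untreated cells by edgeR (1 at an unadjusted p under 0.05, and 0 by DESeq2). In all 20 complexes the median of the chromosome 12 subunits was below that of their partners in untreated KO1, and in KO2 this held in 10.

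**Figure D5:**
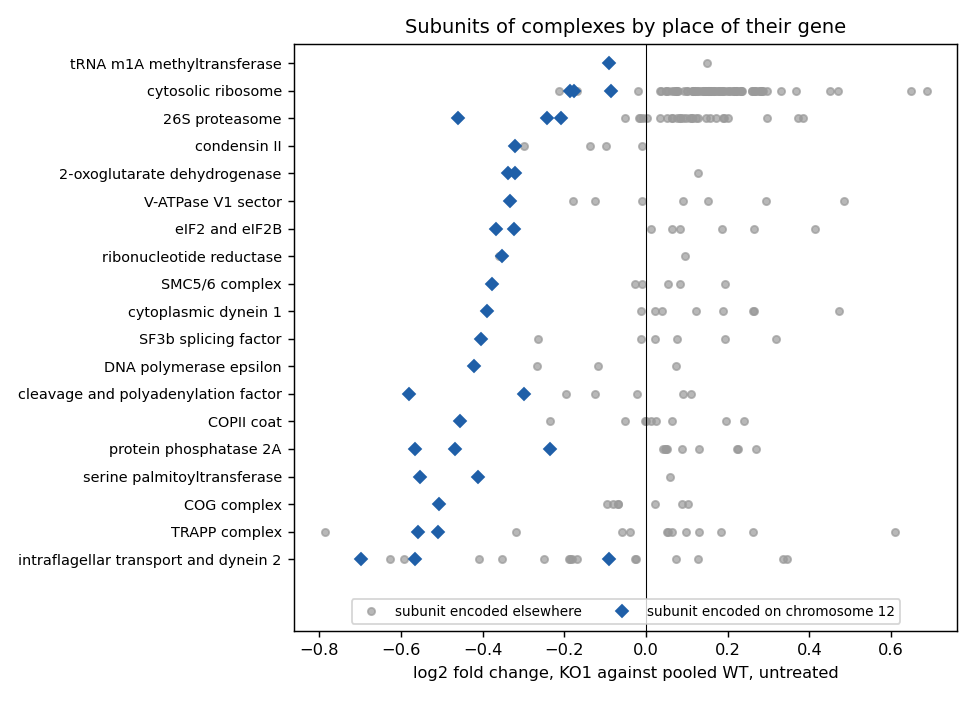
log2 fold change in untreated KO1 against pooled WT (x axis) of the subunits of the complexes (rows, 1 complex not shown), with subunits encoded on chromosome 12 as diamonds and those encoded elsewhere as circles. All diamonds lie below 0, and most lie left of the median of the circles in their row, with Ift43 of the intraflagellar transport row on its right.

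The proteasome is an example. Psmc1, an ATPase of its regulatory particle, ran from 197 to 251 CPM in untreated WT and was at 155, 162 and 165 CPM in KO1, without overlap, and at 214, 205 and 217 CPM in KO2. Its log2FC in KO1 was -0.46 (SE 0.069, edgeR adjusted p = 4.7e-04). The core subunits Psma6 (-0.24) and Psma3 (-0.21) were also lower, and the 28 subunits encoded elsewhere ran from -0.05 to 0.38 with a median of 0.10.

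The 3 ribosomal protein members had smaller differences from WT than the member median. Rps7 had a log2FC of -0.18, Rpl36al of -0.19 and Rps29 of -0.08 in untreated KO1, and none passed the test (edgeR adjusted p = 0.36, 0.13 and 0.55). The 78 ribosomal proteins encoded elsewhere had a median of 0.16, so the differences of the 3 from their partners' median were -0.35 to -0.25 (log2). Their differences from the median of -0.37 were not tested. Against KO2 all 3 were lower, at -0.23, -0.21 and -0.27 in untreated cells and at -0.39, -0.29 and -0.40 after IFNG, where the median of all members was -0.39. Reads of ribosomal protein genes are shared with many retrocopies, and Rps29 in untreated KO1 had a log2FC of 0.00 without WT1, so these values are uncertain.

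Several complexes had more than 1 subunit encoded on chromosome 12. The serine palmitoyltransferase subunits, which start sphingolipid synthesis, stood at -0.41 (Sptlc2) and -0.55 (Sptssa) beside 0.06 for the subunit encoded elsewhere. The cleavage and polyadenylation factors Cpsf2 (-0.30) and Cpsf3 (-0.58) stood beside a median of -0.02 in 5 partners. The eIF2 and eIF2B subunits Eif2s1 (-0.32) and Eif2b2 (-0.37) stood beside 0.13 in 6 partners, and the phosphatase 2A subunits Ppp2r5c (-0.47), Ppp2r5e (-0.57) and Ppp2r3c (-0.24) beside 0.09 in 9 partners. The TRAPP tethering subunits Trappc12 and Trappc6b were at -0.56 and -0.51, and their 12 partners ran from -0.79 to 0.61 with a median of 0.06, with 2 called lower.

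Complexes with 1 subunit on chromosome 12 gave like values. These were the Golgi tether Cog5 (-0.51), the coat protein Sec23a (-0.46), the polymerase subunit Pole2 (-0.42), the splicing factor Sf3b6 (-0.40), Smc6 of the SMC5/6 complex (-0.38), the proton pump subunit Atp6v1d (-0.33) and the condensin II subunit Ncapg2 (-0.32). The medians of their partners were, in that order, -0.07, 0.01, -0.12, 0.05, 0.05, 0.09 and -0.12. The lowest condensin II partner was at -0.30. Rrm2 stood at -0.35, and its 2 partners were at -0.36, called lower, and at 0.09. Trmt61a, of the tRNA m1A methyltransferase, was at -0.09 and did not pass the test (edgeR adjusted p = 0.78).

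Among the cilium transport proteins Wdr60 was at -0.70 and Wdr35 at -0.57, whereas Ift43, at a WT level of 5.23 CPM, was at -0.09 (edgeR adjusted p = 0.62). The 15 partners encoded elsewhere were low too, with a median of -0.18, a range of -0.63 to 0.35 and 4 called lower. Ift43 was the only subunit of the 33 above the median of its partners in untreated KO1. Over the 33 subunits the median difference from the partners' median was -0.44 (log2) in untreated KO1 and -0.43 against KO2. In untreated KO2 it was -0.02. The 210 subunits encoded elsewhere had medians of 0.11 in untreated KO1 and 0.09 against KO2. The differences in KO1 are therefore not the shift of the 33 alone.

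The 8 members with the lowest log2FC in untreated KO1, at a mean of at least 5 CPM, were all lower than in WT. Cep170b, a microtubule-binding protein gene, ran from 30.02 to 42.9 CPM in untreated WT and was at 14.7, 12.2 and 12.3 CPM in KO1 and at 13.8, 14.7 and 14.6 CPM in KO2. Both edited clones were thus below every WT library, with log2FC of -1.495 and -1.346, and KO1 and KO2 did not differ by the test (-0.15, SE 0.080, edgeR adjusted p = 0.20). Dock4 (-1.21), a Rac activator, Prkar2b (-1.16), a regulatory subunit of protein kinase A, Abcd4 (-1.02), the lysosomal cobalamin transporter, and Gstz1 (-1.02), an enzyme of tyrosine breakdown, were also lower in untreated KO2 (-0.52, -0.50, -0.48 and -0.46).

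Syne2, Ighm and Pygl fell in KO1 and did not pass the test in KO2. Syne2, a nuclear envelope linker, ran from 18.2 to 30.98 CPM in untreated WT and was at 11.9, 11.8 and 10.6 CPM in KO1 (-1.08), beside -0.10 in KO2. Ighm, the immunoglobulin mu heavy chain gene, was at -1.06 beside -0.11. Pygl, the liver glycogen phosphorylase, was at -1.19 beside -0.07, and its WT level ran from 16.2 to 41.6 CPM, with the WT1 libraries highest. These 8 had log2FC of -1.41 to -0.77 after IFNG.

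Few protein-coding members stayed near or above the WT level. In untreated cells 28 protein-coding members were placed there and after IFNG 30, with 22 in both (78.6% and 73.3%). In IFNG-treated KO1 against KO2, which shares no library with the untreated comparison, the 28 had a median of -0.21 and 12 were lower. The 247 protein-coding members that followed the shift or lay below the median in untreated cells had a median of -0.42 there, and 218 were lower. Protein-coding members whose interval held both values (34) or lay between them (15) are in neither set. The WT clones also differed more from each other in the 28, with a median range of 0.41 (log2) over the clones in IFNG-treated cells, against 0.23 in the 247, a description that the choice of the 28 against the same clones can set in part.

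Ckb, the brain creatine kinase, differed in sign with the control. Its level ran from 170 to 408 CPM in untreated WT, with WT1 at 375 to 408 CPM and WT2 and WT3 at 170 to 186 CPM, and it was at 346, 309 and 314 CPM in KO1 and at 383, 417 and 418 CPM in KO2. Against pooled WT its log2FC in KO1 was 0.35 (SE 0.31, edgeR adjusted p = 0.44), and against KO2 it was -0.34 (edgeR adjusted p = 1.5e-04). Actn1, an actin cross-linker, was at 110, 110 and 107 CPM in KO1, at 132, 134 and 137 CPM in KO2 and at 84.0 to 99.3 CPM in WT. It was higher than WT in KO1 (0.20, edgeR adjusted p = 0.012) and in KO2 (0.51, edgeR adjusted p = 5.0e-05), and lower in KO1 than in KO2 (-0.31).

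Clmn, an actin-binding membrane protein gene near Dicer1, stood at 0.40 in KO1 (edgeR adjusted p = 0.093) and at 1.29 in KO2, with KO1 lower than KO2 by -0.88 (log2). Pld4, a lysosomal nuclease, stood at 0.16 and 0.40, and at -0.24 between the clones. Rhoj, a small GTPase, was at 5.73 to 36.2 CPM in untreated WT, with the WT1 libraries at 32.5 to 36.2 CPM, at 34.4, 33.8 and 38.4 CPM in KO1 and at 35.9, 34.9 and 36.4 CPM in KO2. Its log2FC of 0.89 in KO1 did not pass the test (edgeR adjusted p = 0.20), and KO1 and KO2 overlapped (-0.02). The kinase Map3k9 gave 0.76 against WT and 0.22 against KO2 and passed neither test. Iah1, an esterase, stood at 0.29 against WT (edgeR adjusted p = 0.011) and 0.02 against KO2. Srp54b, of the signal recognition particle, has near-identical copies on the same chromosome (Srp54a and Srp54c), and its 0.59 is uncertain for that reason.

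Dnmt3a, a DNA methyltransferase, was the best expressed member that was not lower against either control. Its level ran from 187 to 302 CPM in untreated WT, with WT1 highest, and was at 276, 260 and 291 CPM in KO1 and at 248, 235 and 240 CPM in KO2. The KO1 libraries were above the KO2 libraries, with a log2FC of 0.18 (edgeR adjusted p = 0.0089) untreated and 0.45 (edgeR adjusted p = 2.0e-04) after IFNG. Against WT it was at 0.26 (edgeR adjusted p = 0.26) and 0.52 (edgeR adjusted p = 0.047). Chosen after their values were seen, Crip1, a LIM domain protein gene (0.12 against WT and 0.02 against KO2, untreated), Itgb1bp1, an integrin regulator (-0.06 and -0.12), Pnn, a splicing-associated protein gene (-0.08 and -0.11), and Klc1, a kinesin light chain (-0.07 and -0.17), passed neither test in untreated cells.

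Within KO1, IFNG changed few members, 37 lower and 33 higher of 375 tested (13.2% and 16.2% of 13757 genes tested). The rule had removed genes that responded in WT, so this count is a description. The median response of the members in KO1 was 0.02.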

How the data were processed

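RNA-seq was done on 30 libraries of J774A.1 clones. By the submitters' notes and methods, the authors used BBDuk for trimming and HISAT2 2.1.0 for alignment (mm10), kept uniquely aligned fragments, merged technical replicates with SAMtools 1.10 and counted with featureCounts 1.6.2, strand-aware, with fragments over several genes counted for each. The deposited values are raw counts per gene (header: Gencode vM18); 1 table with all 30 libraries was used, and the 138 library columns of the 13 other tables repeated its counts. Column names carry a clone and a treatment but no replicate number, and the columns of WT2 were identified through the table of that clone.

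Here, CPM used TMM factors over 14870 genes. Comparisons used edgeR 4.0.16 in R 4.3.3 (filterByExpr, quasi-likelihood test) with Benjamini-Hochberg adjustment over all genes tested and a threshold of 0.05, with 3 KO libraries against 9 WT or 3 KO libraries. SEs and 95% intervals came from the fitted model. Copies were searched with blastn 2.17.0 among GENCODE vM21 transcripts, at 90% identity over 80% of the length. On simulated counts for untreated KO1 against WT (14239 genes), 53.4% of genes set to a log2 change of 0.5 and 93.6% of those set to 1 were called. For KO1 against KO2 (13826 genes), these shares were 18.8% and 91.4%. The simulation gave every gene the same dispersion and set no differences between WT clones. The simulated shares therefore do not describe the sensitivity of the tests on the real libraries. Alternatives were DESeq2 1.42.0, RLE factors, TMM factors from other chromosomes, other filters, a single fit and leaving out clones or libraries. The members, function lists and complexes were chosen with earlier results of these data known. Named genes were Dicer1, up to 4 members of each list with the highest WT level, all subunits, the 8 highest and 8 lowest log2FC at a mean of at least 5 CPM, the 5 highest levels, and the genes next to each limit of the rule, some of which are not reported here.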

Additional observations from a re-analysis of the deposited data

Results flagged for a closer look

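In untreated KO1 against KO2, 297 of the 376 members differed in level between the edited clones, and after IFNG 272 did, by the direct edgeR test of the difference. Both clones carry the deletion, and the medians of the members were -0.38 and -0.39.

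Within the 9 WT libraries of a treatment, 160 sets of values were examined for a library that stood apart, and 2 did. Chance alone gives about 1 in 20 for independent values. Libraries of the same clone are not independent, so this rate need not hold here. For Rps29 in untreated WT cells, 1 WT1 library was at 557 CPM, while the other 8 ran from 391 to 438 CPM. For Cdc42bpb after IFNG, 1 WT1 library was at 98.6 CPM, while the others ran from 106 to 112 CPM. Both were libraries of WT1, and the cause was not tested.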

How the results depend on the processing

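No paired analysis was possible because the columns carry no replicate number that could be matched to the labels. The member median in KO1 stayed between -0.40 and -0.35 in untreated cells and between -0.39 and -0.36 after IFNG under every alternative of the KO1 to WT comparison, and between -0.40 and -0.37 against KO2. Leaving out 1 library at a time gave 197 to 255 members lower in untreated KO1, 159 to 246 after IFNG, 278 to 288 and 238 to 268 against KO2, 13 to 38 and 10 to 35 called in KO2 against WT (13 to 15 and 10 to 16 without a KO2 library), and 47 to 73 called in the IFNG response of KO1. The shift of KO1 then ran from -0.38 to -0.36 untreated and from -0.37 to -0.36 after IFNG, and the interquartile range from 0.29 to 0.31 and from 0.27 to 0.31 in KO1 and from 0.17 to 0.19 and from 0.19 to 0.21 in KO2. Counts of calls in KO2 against WT moved with the WT clones. They were 28 untreated and 29 after IFNG, 127 and 126 without WT1, and, after IFNG, 17 without WT2 and 19 without WT3. A single fit over all 30 libraries, with a group for each clone and treatment, called 102 and 119. Its error is the spread between libraries of the same clone, so differences between WT clones do not enter it. With protein-coding genes only, the shift was -0.39 in both treatments, and the range was 0.27 and 0.24 in KO1 and 0.16 in untreated KO2. With a mean of at least 5 CPM the shift after IFNG was -0.39, and the range was 0.27 and 0.25 in KO1 and 0.14 in untreated KO2. A pseudocount of 0.1 gave a range of 0.30 after IFNG. Without WT1, chosen after the data were seen, 28 subunits encoded elsewhere and 1 pseudogene were lower.

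Direction turned for some single genes. Without WT1, Rps29 in untreated KO1 was at 0.00078 and Id2 after IFNG at 0.0906. Without WT3, Trmt61a was at 0.0944 untreated and Ift43 at -0.0213 after IFNG. Leaving out 1 library at a time gave -0.163 to 0.0033 for Ift43 in untreated KO1 and -0.111 to 0.870 for Srp54b after IFNG, both against WT. Against KO2 in untreated cells it gave -0.0811 to 0.0125 for Rhoj, -0.154 to 0.0139 for Ift43, -0.0137 to 0.249 for Gm4294 and -0.0368 to 0.0607 for Iah1, and after IFNG -0.543 to 0.441 for Srp54b (-0.0410 in another library's absence), -0.0018 to 0.287 for Map3k9 and -0.130 to 0.0204 for Cep170b. None of these reversed values passed the test. The cause was not tested. Low counts limit the members under 5 CPM, and neither DNA copy number nor protein was measured.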
